A study of Mus musculus with 6 samples.

Results

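The stretches of open chromatin described here were called in at least 2 of 3 wild-type (WT) samples of mouse intestinal crypts and in none of 3 samples with a conditional knockout (cKO) of Arid3a. They numbered 874 of 69957 consensus peaks on chromosomes 1 to 19, which is 1.25% of the peaks examined, and they are named WT-called peaks below. A consensus peak was formed wherever the peak lists of the 6 samples overlapped by at least 1 base. The members were chosen by these calls, which rest on the same fragments as the fold enrichment of a peak, so their number and their strength are given as a description without a test. A peak that was not called in a cKO list can still be accessible there below the calling threshold.

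Chromatin accessibility had been measured by ATAC-seq, in which the transposase Tn5 cuts and tags open DNA. The WT group (genotype Arid3a WT) and the cKO group (genotype Arid3a KO) held 3 samples each, and in both the mice were given tamoxifen once daily for 3 days, with crypts taken 1 month from the first dose. In the knockout, a tamoxifen-inducible Cre driven by the Villin promoter removed floxed Arid3a, so deletion was aimed at the intestinal epithelium and not at other cells of the crypt preparation. The age, sex and strain of the animals are not given in the sources used here, and nothing in the labels says whether each sample came from a separate animal, so the p-values below measure only the spread between these samples.

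Arid3a encodes a DNA-binding protein with an AT-rich interaction domain. Intestinal crypts hold the stem cells and dividing progenitors that renew the epithelium, and most of their cell type-specific regulation takes place at enhancers, which lie in introns and between genes. Promoters of widely used genes, by contrast, tend to be open in every sample.

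On these chromosomes 39773 to 57140 peaks were called per sample. A background of 1.75 to 2.29 fragments per base could be worked out from the fold and p columns. A peak within 1 kb of the gene start was called in all 6 samples at Epcam, Cdh1, Vil1 and Krt8, which mark epithelium, and also at Col1a1, a collagen gene of mesenchyme. None was called in any sample at Ptprc and Cd3e, which mark leukocytes and T cells, at Pdgfra, a marker of mesenchyme, or at Pecam1, which marks endothelium. The number of genes with a called promoter on a list of 67 lymphocyte and leukocyte genes was 19 in each WT sample and 19 to 22 in the cKO samples, and on a list of 50 mesenchymal, endothelial and neural genes the range was 15 to 19 for WT and 16 to 19 for cKO.

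The sequences that carried the strongest WT-called peaks are shown first, because they differed in kind. Members were ranked by the lowest percentile of their fold enrichment within the WT lists that held them. Each line gives 121 bp of the plus strand of GRCm38 centred on the summit, for 6 of the 12 highest ranking members. Capitals mark the AP-1 letters TGACTCA or TGAGTCA in the windows near Atic and Rhbdd2, and a run of 18 letters common to the windows near Abca12 and Fstl1.

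Rnf219, chr14:104715770-104715890: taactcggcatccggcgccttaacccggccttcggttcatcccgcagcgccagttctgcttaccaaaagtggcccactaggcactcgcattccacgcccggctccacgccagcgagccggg
Kbtbd8, chr6:95041497-95041617: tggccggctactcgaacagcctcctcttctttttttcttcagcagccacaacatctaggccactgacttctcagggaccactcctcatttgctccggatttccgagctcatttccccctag
Atic, chr1:71531801-71531921: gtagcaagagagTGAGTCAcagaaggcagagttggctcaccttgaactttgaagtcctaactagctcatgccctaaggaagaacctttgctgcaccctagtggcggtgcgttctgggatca
Rhbdd2, chr5:135626851-135626971: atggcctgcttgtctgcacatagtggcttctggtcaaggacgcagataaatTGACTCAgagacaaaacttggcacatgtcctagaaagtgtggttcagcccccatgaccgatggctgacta
Abca12, chr1:71475791-71475911: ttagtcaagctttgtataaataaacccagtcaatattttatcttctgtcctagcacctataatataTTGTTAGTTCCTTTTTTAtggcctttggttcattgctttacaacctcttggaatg
Fstl1, chr16:37819629-37819749: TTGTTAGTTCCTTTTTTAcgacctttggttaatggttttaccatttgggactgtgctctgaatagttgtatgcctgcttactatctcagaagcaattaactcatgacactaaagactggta

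The AP-1 letters, sought on both strands, were in 5.50% of such windows over all consensus peaks and in 10.5% of those of the WT-called peaks. The 18-letter run, which was looked for after the windows had been compared, was found in 3 of 69957 windows of 201 bp, of which 2 were the WT-called peaks near Abca12 and Fstl1 and 1 was a peak called in all 6 samples. The windows of 201 bp near Abca12 and Fstl1 were repeat-masked over 65.7% and 46.8% of their length in the reference. Their printed letters also resemble each other beyond the run, and whether they are copies of a longer repeat was not tested. The window near Kbtbd8 was repeat-masked in full, and so was that near Rhbdd2. All 5 words of 31 bases from the window near Kbtbd8 were repeated on the assembled chromosomes, 5 to 36 times. Those from the window near Rhbdd2 were also all repeated, 2 to 100 times. A word from the window near Abca12 occurred up to 221 times. All 5 words from the window near Atic occurred once.

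The strongest member stood far apart from the others. It lay at chr14:104715776-104715973, between protein-coding genes, 193 kb from the start of Rnf219, a gene for a RING-type ubiquitin ligase, and within an intron of the noncoding gene D130009I18Rik. Its fold enrichment was 16.3 in WT 2 and 16.6 in WT 3, and no peak was called in WT 1 or in any cKO sample. This placed it at percentiles 96.8 and 97.7 of those lists, from 45 and 49 fragments at the summit. The next member, 111 kb from the start of Zeb1, which encodes a repressor known for its part in epithelial-mesenchymal transition, reached fold enrichments of 8.33 in WT 2 and 7.30 in WT 3. At least 1 word of 31 bases from the Rnf219 window occurred 10 times on the assembled chromosomes. The letters of this window resemble ribosomal RNA, whose genes are present in many copies, and they were not compared here with a full ribosomal RNA sequence. How much of the fold comes from fragments of other copies was not tested, so the value may not measure accessibility at this place.

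The other 10 members of this group had fold enrichments between 5.45 and 7.44 in the lists that held them. The peak at chr6:95041381-95041666, 75.7 kb from Kbtbd8, a substrate adaptor gene of a cullin ubiquitin ligase, had values of 5.79 in WT 1 and 6.64 in WT 3. That near Atic, which encodes an enzyme of purine synthesis, had 6.73 in WT 2 and 7.30 in WT 3. It lay 56.0 kb from the peak near Abca12, a gene for a lipid transporter, at which 5.45, 7.44 and 7.30 were measured in WT 1, 2 and 3. The Abca12 peak was the only 1 of these 12 to be called in all 3 WT samples. The peaks near Rhbdd2 and Tlr2, the latter a receptor gene for bacterial lipoproteins, lay 5.71 kb and 21.4 kb away and had 6.38 and 6.16 in WT 2 and 7.02 and 7.22 in WT 3. Introns held 5 of the 12, among them introns of Acvr1 (a type I receptor for bone morphogenetic proteins), Fstl1 (a secreted glycoprotein), Nsmce2 (a SUMO ligase of the SMC5/6 complex) and Arhgap21. These 5 were called in WT 2 and WT 3, with folds of 6.01 to 6.81.

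Most WT-called peaks were weak. Fold enrichment divides the fragments at a summit by those of the surrounding background, and it was ranked only within its own list. In WT 1, 292 of the members were called, at a median percentile of 13.3 and a median fold of 3.49. In WT 2 there were 735, at a median percentile of 16.2 and a fold of 3.90, and in WT 3 there were 800, at 16.3 and 3.79. The median percentiles of the 32147 peaks called in all 6 samples were 59.3, 67.2 and 69.6 in these lists. Against the 8333 peaks called in 2 or 3 samples that included both genotypes, the WT-called peaks were also lower in each WT list, where those peaks had medians of 16.3, 19.5 and 21.4. The fragments at the summits numbered 15, 15 and 16 at the median in WT 1, 2 and 3, over a local background of 3.18, 2.61 and 2.76. The lowest number called was 8 or 9 fragments, so a typical member rested on a few fragments more than the least that was called.

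**Figure D1:**
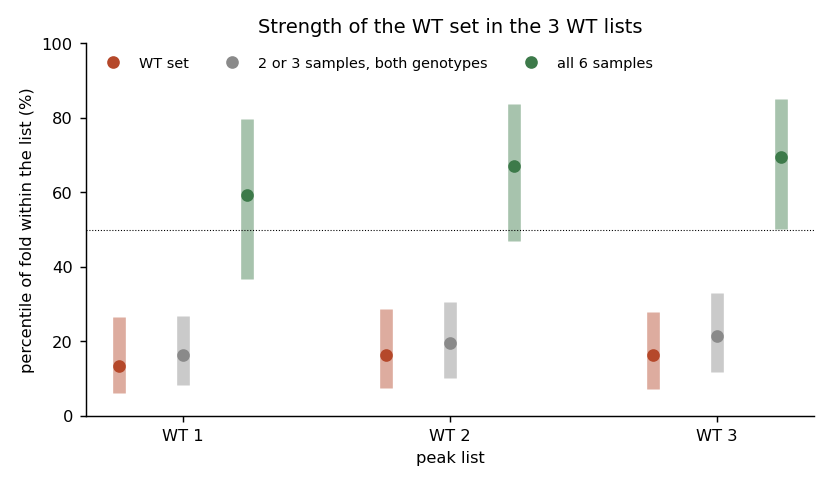
Percentile of fold enrichment within each WT list (y axis, %) for the WT-called peaks (WT set), peaks of 2 or 3 samples of both genotypes, and peaks called in all 6 samples. Points are medians and bars span the quartiles over peaks. The WT set had medians of 13.3, 16.2 and 16.3 in WT 1, 2 and 3, against 59.3, 67.2 and 69.6 for peaks of all 6 samples.

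The members came unevenly from the 3 WT samples. WT 2 and WT 3, the longer WT lists, shared 582 of the 874 (66.6%), WT 1 and WT 3 shared 139, WT 1 and WT 2 shared 74, and 79 were called in all 3, which is 0.113% of the consensus peaks. Whether the 79 were stronger depended on the measure. Their median percentile of fold was 13.3, 12.2 and 13.2 in WT 1, 2 and 3, against 13.3, 16.2 and 16.3 for all members, but their median −log10 q was 3.70, 4.97 and 5.25 against 3.53, 4.42 and 4.41. Over the WT lists together, the median percentile of fold was 17.3 for the 795 peaks of exactly 2 WT samples. Without WT 2 the rule gave 217 peaks and without WT 3 it gave 148, whereas without cKO 1, the longest list, it gave 2218. Calls in 2 WT samples were still required when 1 sample was left out. By the rule itself, then, counts tend to fall without a WT list and to rise without a cKO list. Just outside the rule lay 6625 peaks called in 1 WT and no cKO sample, at a median percentile of 13.6, and 1930 peaks called in 2 or 3 WT samples and 1 cKO sample, at 21.8.

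Peaks chosen in some samples were then looked for in the samples left out of the choice. For each of the 9 ways to leave out 1 WT and 1 cKO sample, peaks were selected that were called in both remaining WT samples and in neither remaining cKO sample. The choices reuse the same samples and peaks, so they are not separate trials. The share of selected peaks called in the left-out sample was higher for WT than for cKO in 4 of the 9 choices, and it averaged 40.7% in the left-out WT and 41.5% in the left-out cKO sample. The difference ran from −43.7 percentage points, with WT 1 and cKO 1 left out, to 24.9 with WT 3 and cKO 2 left out. WT 1 had the shortest list and cKO 1 the longest, and with WT 1 left out the cKO share was the higher in all 3 choices. In the reverse selection, of peaks called in 2 cKO samples and in neither of 2 WT samples, the left-out cKO sample had the higher share in 6 of 9 choices and the difference averaged 11.6 points. On average, then, peaks selected for WT were called about as often in a left-out cKO as in a left-out WT sample, and with all lists cut to equal length the mean difference was 2.13 points in favour of WT.

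**Figure D2:**
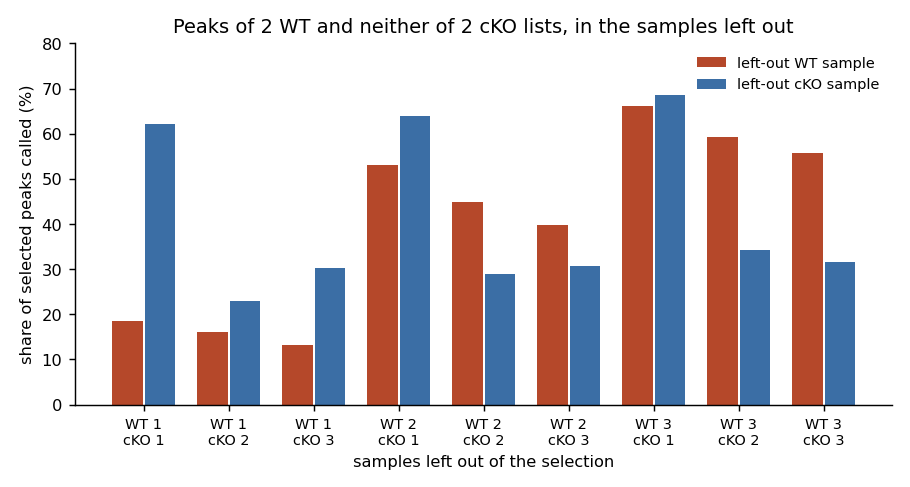
Share of selected peaks (y axis, %) called in the WT sample and in the cKO sample left out of the selection, for the 9 choices of left-out samples. The WT bar is the taller in 4 of 9 choices, and with WT 1 left out the shares are 13.2% to 18.4% in WT and 23.0% to 62.1% in cKO samples.

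By position, the WT-called peaks were distal. A summit from 1000 bp upstream to 100 bp downstream of the transcription start site (TSS) of a protein-coding gene counted as a promoter. Summits lay between genes in 399 members (45.7%, 95% Wilson interval 42.4% to 49.0%), in introns in 373 (42.7%), in promoters in 59 (6.75%, 5.27% to 8.61%), in coding exons in 24 (2.75%) and in noncoding parts of exons in 19 (2.17%). Gene bodies outside promoters thus held 416 members (47.6%, 44.3% to 50.9%). The same share was 53.0% (51.0% to 55.0%) in the 2328 peaks called in at least 2 of 3 cKO and no WT samples (3.33% of the consensus peaks), named cKO-called peaks, and 50.2% (49.1% to 51.2%) in the peaks of 2 or 3 samples of both genotypes. In peaks of all 6 samples promoters made up 33.5% and gene bodies 35.1%. These intervals cover counting error over peaks only, and peaks are not replicates.

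**Figure D3:**
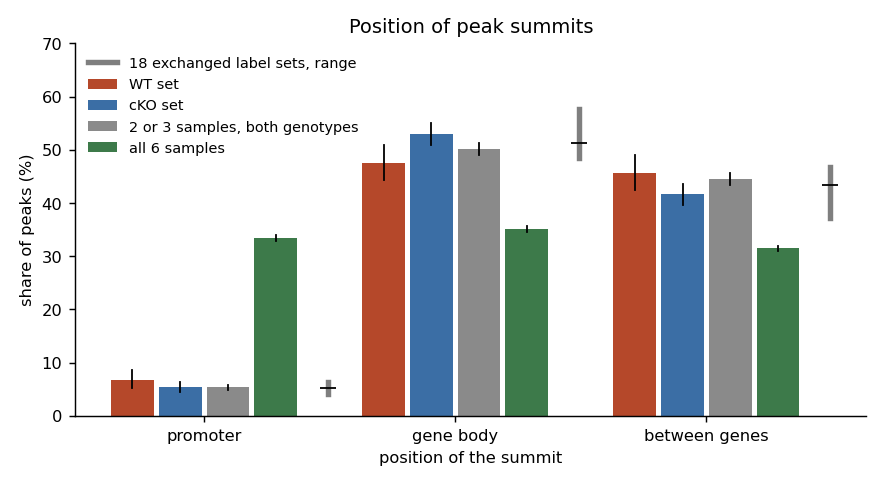
Share of peak summits (y axis, %) in promoters, in gene bodies and between genes for the WT-called peaks (WT set), the cKO-called peaks (cKO set), peaks of 2 or 3 samples of both genotypes and peaks of all 6 samples, with 95% Wilson intervals. The grey line at the right of each position spans the values after exchange of the labels, with a tick at their median. The WT set had 47.6% of its summits in gene bodies and 6.75% in promoters, against 53.0% and 5.37% in the cKO set.

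The rule was applied unchanged to the 18 other assignments of the labels, in which the 3 samples standing for WT came from both genotypes. This is a description of the lists and not a test. The number of peaks ran from 295 to 4862 (median 1108), so the 874 WT-called peaks fell inside it, with 11 assignments above them. The gene body share was 48.4% to 57.6% and the promoter share 4.11% to 6.34%, so that the WT-called peaks lay below the former and above the latter. The median of the lowest percentile was 10.3 in the WT-called peaks and 9.64 to 16.1 in the others. Local groups numbered 0 to 183 and genes with 3 or more peaks 1 to 265, a span that covers the 3 groups and 10 genes described below.

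The median distance to the nearest protein-coding TSS was 13.5 kb, against 13.9 kb for the cKO-called peaks and for the peaks of both genotypes, and 4.49 kb for peaks of all 6 samples. Members under 10 kb from a TSS were weaker than those farther away, with median lowest percentiles of 7.54 under 1 kb, 7.79 at 1 to 10 kb and 16.2 over 100 kb. The members were narrow, with a median width of 368 bp against 504 bp for cKO-called peaks. Over the 18 other assignments of the labels the median width was 361 to 507 bp, 2 of them below 368 bp and 16 above. Shared peaks, those called in all 6 samples, lay within 5 kb of 294 members (33.6%), against 17.2% of cKO-called peaks and 21.2% of peaks of both genotypes.

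In windows of 201 bp centred on the summit, A+T made up 49.9% ± 7.52 of the bases (SD over 874 peaks), against 51.8% ± 7.36 over the 2328 cKO-called peaks and 50.3% ± 7.31 over the 8333 peaks of both genotypes. The 18 other assignments of the labels gave means of 49.5% to 52.4%, 4 of them below the WT-called peaks and 14 above. At least 50% of the 201 bp window was repeat-masked in 75 members (8.58%), against 6.92% of cKO-called peaks and 2.63% of peaks of all 6 samples. The other assignments gave 6.85% to 11.1%, so the WT-called peaks fell inside both ranges. One or more of 5 words of 31 bases around the summit occurred elsewhere on the assembled chromosomes for 111 members (12.7%, 95% Wilson interval 10.7% to 15.1%), against 8.55% (7.48% to 9.75%) of cKO-called peaks, 9.92% (9.30% to 10.6%) of peaks of both genotypes and 5.83% of peaks of all 6 samples. Words with 100 or more copies were in 42 members (4.81%) and in 2.71% of cKO-called peaks. Fragments from such windows cannot always be assigned to one place in the genome, and the part of this in the calls was not tested.

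Of the 59 promoter members, 8 were called in all 3 WT samples. Their median lowest percentile was 7.44, against 10.3 for members in gene bodies, and 8 of them (13.6%) reached percentile 25, against 13.2% in gene bodies. The strongest lay 0.951 kb upstream of Rapgef6, which encodes an exchange factor for Rap proteins, at chr11:54595113-54595409, with fold enrichments of 6.03 in WT 2 and 7.30 in WT 3. At Por, which encodes the reductase that supplies electrons to microsomal cytochromes P450, a peak 56 bp upstream of a TSS had 6.01 in both WT 2 and WT 3. Among the 10 strongest promoter members it had the most fragments at the summit, 40 in WT 2 and 55 in WT 3. It lay 43.1 kb from the strong intergenic peak near Rhbdd2. Cntnap5c, a gene of the contactin-associated family, had 5.32 in WT 2 and 5.64 in WT 3.

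Promoter members ranked next lay at Tbc1d30 (a Rab GTPase-activating protein, fold 6.07 in WT 2 and 4.65 in WT 3), Them7 (4.61 and 4.98), Mt4 (a metallothionein of stratified epithelia), Eya2 (a phosphatase and transcriptional coactivator, 4.56 and 4.98), Usp45 (a deubiquitinase), Kcnt2 (a potassium channel subunit) and Caly. All 10 of these promoter members were called in WT 2 and WT 3 and not in WT 1. Several of the genes, such as Mt4, Kcnt2, Cntnap5c and Caly, are known from tissues other than the gut epithelium.

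Coding exons held 24 members, none of them called in all 3 WT samples. The strongest lay in Rc3h1, the gene of the RNA-binding protein Roquin-1, at chr1:160939828-160940103, with fold enrichments of 5.67 in WT 2 and 6.21 in WT 3. Exonic peaks in Dnah7b, an axonemal dynein gene, had 4.18 in WT 1 and 4.96 in WT 2. Those in Pacsin1 (endocytosis in neurons) and Iqsec3 (an exchange factor for Arf proteins) were called in WT 1 and WT 3, at folds of 4.11 and 4.62 and of 3.95 and 4.98, and that in Wfdc17 in WT 2 and WT 3, at 4.68 and 4.31.

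The nearest genes were spread widely. The 874 members had 817 different nearest protein-coding genes, of which 770 (94.2%) had 1 member, 37 had 2 and 10 had 3, the largest number. A promoter peak in all 6 samples was found at 536 of the 817 genes (65.6%), against 66.7% of the genes nearest to cKO-called peaks and 47.7% of all protein-coding genes on these chromosomes. No promoter peak was called in any sample at 201 of the 817 genes (24.6%). This share was 25.01% for the genes nearest to cKO-called peaks and 46.7% for all protein-coding genes on these chromosomes. Both kinds of peak shared 189 nearest genes, 23.1% of the genes nearest to WT-called and 9.53% of those nearest to cKO-called peaks. A cKO-called peak was also nearest to 20.2% of the genes nearest to peaks of both genotypes and to 12.6% of the genes nearest to any consensus peak. These gene sets differ in how many consensus peaks a gene has, with medians of 7, 6 and 3 for the genes nearest to WT-called peaks, to peaks of both genotypes and to any peak.

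The 10 genes with 3 members held 30 members, 15 in introns and 15 between genes. These were weak as a group, with a median lowest percentile of 8.07, and 2 of the 30 reached percentile 25. Wdr20, which encodes a cofactor of deubiquitinases, had the largest share, 3 of its 6 nearest consensus peaks. They lay 12.3 kb upstream of its start, in an intron of Wdr20 and in an intron of the neighbouring Mok, and were called in WT 2 and WT 3 at folds of 3.65 to 4.68. Ralgapa2, a gene for a subunit of the complex that inactivates Ral proteins, had 3 of 24 in its introns, with folds of 3.36 to 6.09. Fto, which encodes an RNA demethylase, had 3 of 15, all intronic, and Pitpnc1, a phosphatidylinositol transfer protein gene, had 3 of 18.

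Abcc2, the gene of an apical exporter of conjugated bile pigments and drugs, had 3 of 15, 1 of which was upstream by 6.48 kb with folds of 3.88 in WT 1 and 3.84 in WT 3. Lpp, a LIM protein gene of focal adhesions, had 3 of 51 over 405 kb, and Ano6, a gene for a phospholipid scramblase, 3 of 32. At each of these 10 genes both genotypes also had other peaks, 1 to 20 of them called in all 6 samples. Leaving out the members, whose calls the rule fixes, WT 1, 2 and 3 had 1, 2 and 2 called peaks near Wdr20 and cKO 1, 2 and 3 had 2, 2 and 3. Near Lpp the peaks other than members numbered 23, 27 and 37 in WT and 36, 27 and 32 in cKO samples, so the genotypes overlapped at both genes.

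Members that lay together were rare. Runs of at least 3 members with gaps of up to 50 kb numbered 3 and held 9 members (1.03%), against 32 runs and 4.34% of the cKO-called peaks. The sets differ in size, at 874 and 2328 peaks, and a larger set has more chances to form runs, so these shares are not compared further. Another member lay within 50 kb of 73 members (8.35%). With gaps of up to 20 kb no run was left, and with 100 kb there were 9.

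The first run, chr14:53729633-53777293, lay among the variable segments of the T cell receptor alpha locus (Tcra), 477 to 524 kb from the start of Dad1, the nearest gene annotated as protein-coding. T cells join 1 of these segments to a joining segment to make the receptor. Its 3 members lay at Trav13-3, a pseudogene segment, at Trav13-4-dv7, 17 bp upstream of its start, and at Trav3-4. All 3 were called in WT 2 and WT 3, with folds of 4.61, 5.67 and 3.54 in WT 2 and 3.98, 4.98 and 3.65 in WT 3. Besides the members, the run held 1 peak in WT 2 and 2 in cKO 2, and none in the other samples. Words from 2 of the 3 windows occurred up to 9 and 11 times in the genome.

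The second run lay upstream of Tpd52, a gene of vesicle trafficking, at chr3:9037222-9077048. Its strongest member was called in all 3 WT samples, at folds of 4.51, 5.85 and 7.68 in WT 1, 2 and 3, and the other 2 in WT 2 and WT 3. Besides the members, WT 1, 2 and 3 had 2, 2 and 4 peaks in the run, and cKO 1, 2 and 3 had 4, 3 and 4. A word of 31 bases at the member nearest to Tpd52 occurred 13579 times in the genome. The third lay around Epha2, a receptor tyrosine kinase bound by ephrin-A ligands, at chr4:141278191-141331486, with folds of 2.51 to 3.20, the weakest of the 3 runs. Besides the members, each WT sample had 7 peaks there and cKO samples had 8, 8 and 6, with 6 peaks common to all.

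**Figure D4:**
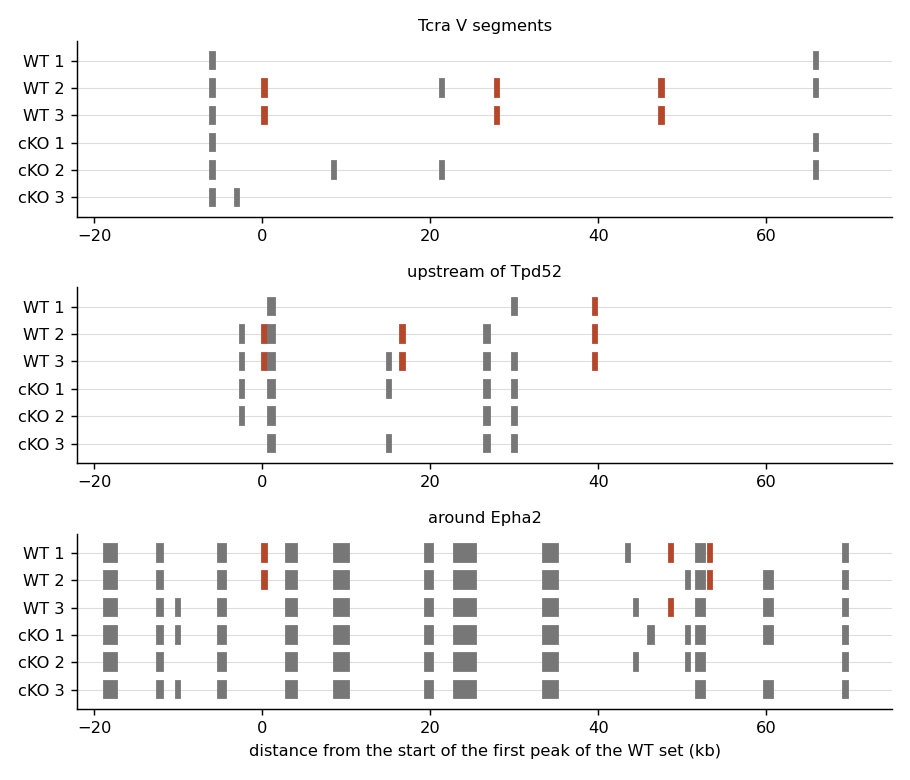
Peaks called in each sample across the 3 runs of at least 3 WT-called peaks and 20 kb on either side (x axis, distance in kb from the start of the first WT-called peak). Red blocks are WT-called peaks and grey blocks are other peaks, drawn at least 0.5 kb wide. At the Tcra segments WT 1, cKO 1 and cKO 3 had no peak within the run, whereas around Epha2 each sample had 6 to 10 peaks, members included.

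Chromosomes differed little in their share of WT-called peaks, from 0.928% on chromosome 19 (21 peaks) to 1.55% on chromosome 2 (83 peaks). Over 245 windows of 10 Mb with at least 50 consensus peaks, the share ran from 0% to 5.61%, with a median of 1.17%. No member lay in 24 of these windows. The most members in a window were 13 of 557 consensus peaks (2.33%), at 130 to 140 Mb of chromosome 1. Within 10 Mb on either side of Arid3a, 3 of 865 consensus peaks (0.347%) were WT-called and 17 of the 865 were cKO-called. Over all consensus peaks the shares were 1.25% and 3.33%. No WT-called peak had Arid3a as its nearest gene.

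The functions of the nearest genes were described with 30 gene lists, 14 of pathways and cell types and 16 of gene families recognised by symbol. Together they took 26.3% of the WT-called peaks, 24.5% of the cKO-called peaks and 24.4% of all consensus peaks. The share of the WT-called peaks was above that of all consensus peaks for 15 of the 30 lists. The 95% Wilson interval lay wholly above it for 3 lists and wholly below it for none. The 3 were receptor tyrosine kinase and ERK pathway genes, mesenchymal, endothelial and neural genes, and interleukins, chemokines and their receptors. The intervals were not adjusted for the 30 lists examined, and the lists were described only.

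Receptor tyrosine kinase and ERK pathway genes were nearest to 13 members (1.49%, interval 0.871% to 2.53%), against 0.646% of all consensus peaks and 0.515% of cKO-called peaks. They were 13 different genes. Pdgfra, a receptor for platelet-derived growth factor, had a member 154 kb away with folds of 5.32 in WT 2 and 5.64 in WT 3. Map2k1, which encodes the kinase MEK1, had 1 of its 3 nearest peaks called this way, 13.8 kb upstream, at 5.59 and 4.97. Areg, the gene of the EGF receptor ligand amphiregulin, had a member 80.8 kb downstream at 4.96 and 7.63, and Spry2, an inhibitor of the pathway, 14.6 kb upstream at 4.96 and 4.98. All 5 words of 31 bases in the Spry2 window were repeated, 7 to 276 times, and 94.5% of it was repeat-masked, while a word at the Map2k1 peak occurred 26 times. The words at Pdgfra and Areg occurred once.

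Wnt pathway genes were nearest to 10 members (1.14%, 0.623% to 2.09%), against 0.782% of all consensus peaks and 0.730% of cKO-called peaks. Fzd5, a receptor for Wnt ligands, had 2 of them, the stronger in an intron of Ccnyl1 with folds of 6.33 in WT 2 and 5.87 in WT 3. Single members lay near Ryk, Tle4 and Tle1, a co-receptor and 2 corepressors of the pathway. The TGF-beta and BMP pathway had 5 members (0.572% against 0.576% of all consensus peaks), 1 of them in an intron of Smad4, the common mediator of these signals, at 3.54 in WT 1 and 4.27 in WT 3. No WT-called peak was nearest to any of 33 Notch pathway genes. The Wilson interval of this count of 0 reached 0.438% (3 counts of 874 would be 0.343%), which takes in the 0.385% of all consensus peaks, so a difference was not detectable at this number of peaks.

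Stem cell genes had 5 members, at 5 genes, and a share of 0.572% (0.245% to 1.33%), against 0.615% of all consensus peaks. They included peaks 79.8 kb upstream of Lrig1, a negative regulator of growth factor receptors that marks stem cells, at 4.70 and 5.06 in WT 2 and WT 3, and in an intron of Ephb2, an Eph receptor of crypt base cells, at 4.45 and 3.16. Absorptive enterocyte genes had 4, all weak, a share of 0.458% (0.178% to 1.17%) against 0.550% of all consensus peaks. One in an intron of Vil1, the gene of villin, had folds of 3.15 in WT 2 and 2.87 in WT 3, and one 5.86 kb upstream of Cdx2, the intestinal homeobox factor, had 2.70 and 2.27. One in an intron of Cdhr2, a cadherin of the brush border, was called in all 3 WT samples at 2.40, 2.55 and 2.65.

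Genes of secretory cells were nearest to few consensus peaks of any kind, 152 for the goblet and Paneth list and 159 for the enteroendocrine and tuft list. The goblet and Paneth list had 1 member, near St6galnac1 (0.114%, 0.0202% to 0.645%), against 0.217% of all consensus peaks. The enteroendocrine and tuft list had 3, near Tac1, Gip and Chga, genes of peptides of endocrine cells. Its share was 0.343% (0.117% to 1.00%), against 0.227% of all consensus peaks and 0.430% of cKO-called peaks. For both lists the interval took in the share of all consensus peaks. The peak 6.36 kb upstream of Gip was the only consensus peak nearest to that gene, with folds of 5.26 in WT 2 and 3.95 in WT 3. Cell cycle genes had 1 member, near Cdkn2b (0.114% against 0.415% of all consensus peaks), and regenerative and YAP genes had 2, near Il33 and Cldn4 (0.229% against 0.322%).

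AP-1 and stress kinase genes had 5 members (0.572%), against 0.615% of all consensus peaks, 2 of them near Maf and 1 each near Nfe2l3, Gadd45g and Maff. Genes of intestinal transcription factors had 19 members (2.17%), against 2.32%. Klf6, a Krüppel-like factor induced by injury, had 2 of them. The first lay 0.251 kb upstream of its TSS and was called in all 3 WT samples, at folds of 2.45, 2.88 and 2.27, with a shared peak 0.694 kb away. Runx2 also had 2, the stronger in its intron at 4.83 in WT 1 and 4.31 in WT 3, and Zbtb20 had an intronic member at 6.0 in WT 2 and 5.72 in WT 3.

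Lists of other cell types, and that of interleukins and chemokines, had small counts of members, but at shares above those of all consensus peaks. Lymphocyte and leukocyte genes were nearest to 5 (0.572%, 0.245% to 1.33%), against 0.356% of all consensus peaks and 0.473% of cKO-called peaks. The only consensus peak nearest to Cd3e, a chain of the T cell receptor complex, was a WT-called peak 13.4 kb upstream, with folds of 4.77 in WT 2 and 3.80 in WT 3. Il2ra, the interleukin-2 receptor alpha chain gene, had an intronic peak at 4.19 in WT 1 and 4.65 in WT 3, and single members lay near Itgam and Bcl11b. Mesenchymal, endothelial and neural genes had 7, among them the peaks near Zeb1 and Pdgfra given above. Their share was 0.801% (0.388% to 1.64%), against 0.344% of all consensus peaks and 0.515% of cKO-called peaks. Interleukins, chemokines and their receptors had 12 (1.37%, 0.787% to 2.38%), against 0.703% of all consensus peaks and 0.859% of cKO-called peaks. In bulk chromatin, more cells of a type and more accessible sites per cell cannot be told apart. The part of these cells in the WT-called peaks was not tested.

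Among the families, homeobox, Sox, Fox and Klf factors had 23 members (2.63%), against 2.05% of all consensus peaks and 2.45% of cKO-called peaks. Solute carriers and ABC transporters had 21 (2.40%), against 3.17% of all consensus peaks and 2.49% of cKO-called peaks. Ion channels had 14 (1.60% against 0.982%), with 3 at Ano6 and 1 at Kcna1, and axon guidance and synaptic adhesion genes had 11 (1.26% against 0.780%), with 3 at Epha2. Symbols of the ubiquitin ligase family, which take in the deubiquitinase Usp45 and the Rab GTPase-activating protein Usp6nl, had 9 (1.03%), against 1.87% of all consensus peaks and 2.32% of cKO-called peaks. Cadherins and protocadherins had 7 (0.801%), with 2 each near Cdh26 and Fat1, against 0.395% of all consensus peaks and 0.515% of cKO-called peaks. Near integrin, laminin and collagen genes lay 8 (0.915%), with 2 near Itga6, against 0.496% of all consensus peaks and 0.644% of cKO-called peaks.

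**Figure D5:**
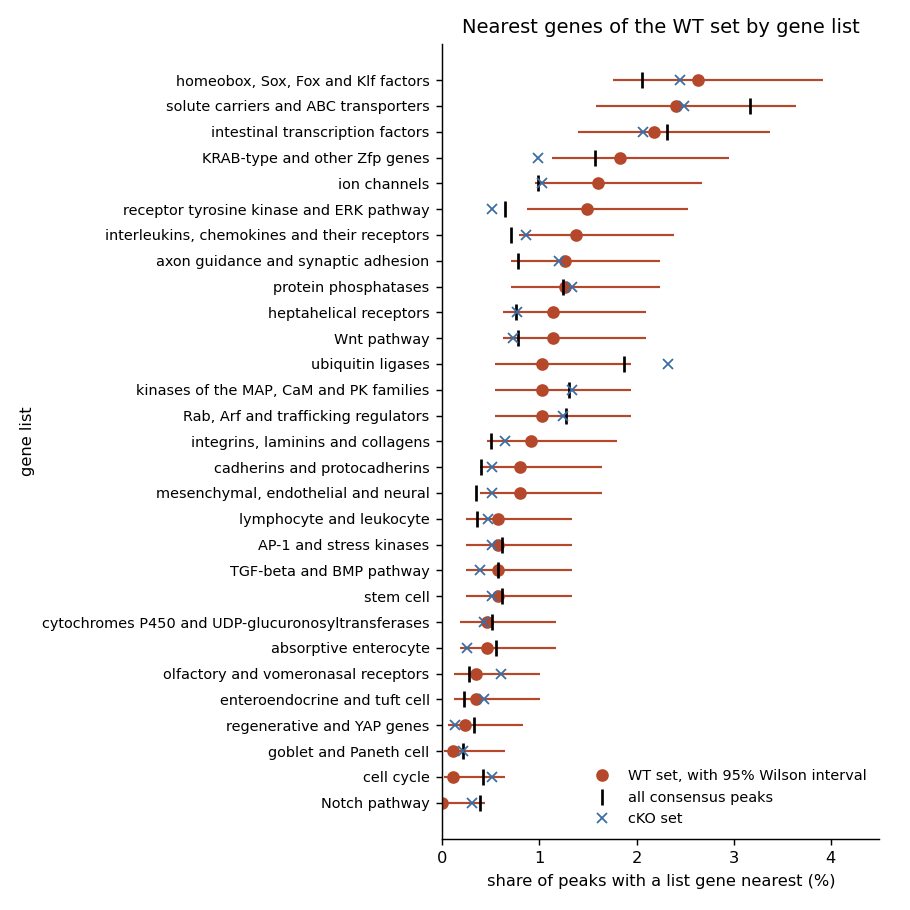
Share of peaks whose nearest protein-coding gene is on each of 29 of the lists (x axis, %), for the WT-called peaks (WT set) with 95% Wilson intervals, for all consensus peaks (black ticks) and for the cKO-called peaks (cKO set, crosses). Shares of the WT set ran from 0% for Notch pathway genes to 2.63% for homeobox, Sox, Fox and Klf factors, and most intervals span the tick of all consensus peaks.

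Peaks that the rule did not use were compared between the genotypes to ask whether accessibility around the members differed as well. Shared peaks were ranked by fold within each sample, and the mean percentile was taken over the 2925 that lay within 50 kb of a WT-called peak. WT 1, 2 and 3 had means of 46.1, 45.5 and 44.5, and cKO 1, 2 and 3 had means of 43.0, 45.6 and 43.2. The values of cKO 2 overlapped those of WT, and the difference of 1.44 between the means (WT 45.4 ± 0.816, cKO 44.0 ± 1.45, SD, n = 3) gave p = 0.3 in an exact two-sided permutation test. With 3 samples against 3 the smallest p is 0.1. Shared peaks near cKO-called peaks differed in the same direction, by 0.872, and those near peaks of both genotypes by 0.693.

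Promoters of the nearest genes were compared in the same way. Over 641 shared promoter peaks, WT 1, 2 and 3 had mean percentiles of 64.8, 62.0 and 60.1, whereas cKO 1, 2 and 3 had 54.8, 63.5 and 54.7. The mean over WT was 62.3 ± 2.34 and that over cKO 57.7 ± 5.05 (SD, n = 3), a difference of 4.64 with p = 0.3 in an exact two-sided permutation test, and adjusted p = 0.3 over both comparisons (exact permutation, Benjamini-Hochberg). Again cKO 2 lay among the WT samples. For the genes nearest to cKO-called peaks the difference was 4.39, and the 2 differences were apart by 0.243 (exact permutation p = 0.6). A genotype difference at shared peaks around the WT-called peaks, or one particular to their surroundings, was not detected with these 6 samples.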

How the data were processed

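ATAC-seq peak lists of 3 WT and 3 cKO samples were used, grouped by the genotype in the labels. The authors trimmed reads with Trim Galore, aligned them to GRCm38 with BWA in the nf-core ATAC-seq pipeline, removed blacklisted regions, and called narrow peaks per sample with MACS2 at an effective genome size of 2.6 Gb. No input control was described. Each deposited list gives a score, a fold ratio over the local background, and −log10 p and −log10 q values, the lowest −log10 q being 1.30 to 1.31. No 2 lists were identical. Read totals were not used here. Fragments at a summit were recovered from the fold and p columns, which gave whole numbers for 100% of 4000 peaks sampled per list. A list's background coverage is its commonest recovered background.

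Peaks on chromosomes 1 to 19 were merged where they overlapped by 1 base or more. Genes came from GENCODE M21 and sequence from the RefSeq copy of GRCm38.p6, the build of the files. Coordinates are 1-based. Python 3.11.15 was used with matplotlib 3.10.9, statsmodels 0.14.6, scipy 1.17.1, numpy 2.4.6 and pandas 2.3.3. The merging, the rule and the comparison at neighbouring shared peaks were tested on simulated lists, and the other steps were not. Named are the 12 strongest members, genes with at least 3 members, up to 4 genes per list, the 10 strongest promoter and 5 strongest coding exon members, and runs of members. Peaks were not tested as replicates. The members, lists and tests were chosen with earlier results of these data known. Results for 1 named member and 1 gene list are not reported here.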

Additional observations from a re-analysis of the deposited data

How the results depend on the processing

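In all, 79 values were recomputed under the alternatives below and with chromosomes X and Y, other distances and ranks by −log10 q. Of these, 58 were classed as near the reported value or in the same direction, 20 as moved and 1 as reversed. The first class was wide and took in member counts of 658 without WT 1, 1122 without cKO 2 and 1263 without cKO 3. Where values moved the cause was not tested. With 1 sample left out the rule still required 2 WT calls and no cKO call. By the rule itself, then, member counts tend to fall without a WT list and to rise without a cKO list. The 874 members became 421 when calls below a −log10 q of 5 were dropped, 1454 with equal windows around the summits sharing 50%, 79 when all 3 WT samples were required, and 148 to 2218 when 1 sample was left out (148 without WT 3, 217 without WT 2, 2218 without cKO 1). The gene body share of 47.6% became 44.3% with all 3 WT samples required and 53.0% with all annotated genes. The promoter share of 6.75% became 10.1% and 8.81% under these 2 alternatives and 10.5% with summit windows. The 3 local groups became 16 with summit windows, 0 with all 3 WT samples or gaps of 20 kb, 9 with gaps of 100 kb, and 0 to 29 when 1 sample was left out (0 without WT 2 or WT 3, 7 without cKO 2, 10 without cKO 3, 29 without cKO 1). Lists cut to equal length gave 924 members.

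The difference between left-out WT and left-out cKO samples reversed with lists of equal length, from −0.805 to 2.13 percentage points, and was −4.43 with −log10 q of at least 5. The differences at neighbouring shared peaks (0.775 to 2.80) and at promoters of the nearest genes (0.794 to 7.75) kept their direction under each of 15 and 14 alternatives, with exact permutation p of 0.1 to 0.6 and 0.2 to 0.6. Samples of the 2 genotypes share replicate numbers, but the correlations of their deviations at shared peaks were −0.311, 0.0149 and 0.126 for numbers 1, 2 and 3, so the numbers were not taken to pair them. With the replicate block, an exact sign-flip permutation over 3 pairs whose smallest p is 0.25, the differences of 1.44 and 4.64 gave p = 0.5 each. In each WT list the quartiles of the fragments at the summits lay between 12 and 24, so a call missing from a list at this depth does not show closed chromatin.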
